A study of Homo sapiens with 8 samples.

Results

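PDK4, ANGPTL4 and DDIT4 are genes of the fasting response, and binding of 2 steroid receptors, the glucocorticoid receptor (GR) and the receptor for progesterone (PR), was read here at and around them. The members were chosen by position: every called ChIP-seq peak that overlapped 1 of the 3 gene bodies, extended by 50 kb on each side, was taken. In the hg19 build the gene bodies lie at chr7:95212809-95225925 (PDK4, minus strand), chr19:8429011-8439257 (ANGPTL4, plus strand) and chr10:74033677-74035797 (DDIT4, plus strand). Of 94404 peaks deposited over the series, 41 lay near the genes. Peaks of different lists that overlapped were joined into sites, which gave 19 sites, with 4 near PDK4, 6 near ANGPTL4 and 9 near DDIT4.

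PDK4 is a kinase that inhibits the pyruvate dehydrogenase complex and so spares glucose when fat is burned. ANGPTL4 is a secreted inhibitor of lipoprotein lipase that steers the uptake of circulating fat, and DDIT4, also called REDD1, restrains the growth kinase complex mTORC1 under stress. Their genes are known targets of glucocorticoids in several tissues. GR and PR are related steroid receptors that, once bound by ligand, recognise nearly the same DNA element, a palindrome in which the hexamer AGAACA is followed, after a spacer of any letters NNN, by its reverse complement TGTTCT.

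ChIP-seq recovers the DNA held by a protein with an antibody and sequences it. The cells were derivatives of T47D, an established human breast cancer line of mammary epithelial type. The A1-2 derivative has both receptors according to the series, and the MTVL WT derivative served as the control line. How either was made, and whether it is 1 clone, is not given in the sources used here. All cells had been kept for 48 h in hormone-stripped serum and then starved of serum for 24 h. Treated cells received 10 nM of the synthetic glucocorticoid dexamethasone (Dex) or of the synthetic progestin R5020 and were harvested at 60 min. Untreated cells are labelled as time 0, so no untreated library is matched to the 60 min of treatment. The GR lists, made with a mix of 2 antibodies, came from A1-2 cells without hormone, with Dex and with R5020. The PR lists came from each line without hormone and with R5020, and an input list of A1-2 DNA made the eighth. With 1 library for each condition, differences between conditions could not be checked against replicates, and none is tested. Read depth was unknown, and depth changes how many peaks are called. Binding alone was measured, not the RNA of the genes.

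The DNA just before a gene's start is shown for PDK4 and DDIT4, since PR peaks of both lines, and for PDK4 a GR peak too, cover this stretch. All 3 genes were matched by symbol in RefSeq's promoter table (GRCh38.p14), and the 250 bases before the RefSeq start are printed 5′ to 3′ in the direction of the gene. Capitals mark the receptor hexamer TGTTCT or its reverse complement AGAACA.
PDK4: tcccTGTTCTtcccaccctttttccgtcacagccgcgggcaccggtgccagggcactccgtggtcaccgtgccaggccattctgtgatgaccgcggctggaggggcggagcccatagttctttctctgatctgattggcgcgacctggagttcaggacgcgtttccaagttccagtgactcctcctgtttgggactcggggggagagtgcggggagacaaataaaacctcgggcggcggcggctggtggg
DDIT4: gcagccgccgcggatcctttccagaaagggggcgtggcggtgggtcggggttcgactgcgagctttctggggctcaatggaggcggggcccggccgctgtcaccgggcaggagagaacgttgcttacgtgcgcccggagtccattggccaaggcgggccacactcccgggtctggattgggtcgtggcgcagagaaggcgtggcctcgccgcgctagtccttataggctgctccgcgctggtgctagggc

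The PDK4 stretch held the hexamer 1 time, from 246 to 241 bases before the RefSeq start, and DDIT4 and ANGPTL4 did not hold it in the table's 300 bases (250 before and 50 after the start). Of 35116 promoters of this length in the table, 14.8% held the hexamer on either strand. The full palindrome, AGAACA and TGTTCT with NNN between them, which holds the hexamer on each strand, was in none of the 3 and in 0.00285% of all. The RefSeq PDK4 gene is 99 bases shorter than the hg19 body used here and the DDIT4 gene 8 bases shorter, so the starts of the 2 builds may differ by as much. The stretch before ANGPTL4 is not shown, because the peak at its start reached only 3 bases upstream of it and 631 bases into the gene.

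No peak lay near any of the genes without hormone. The GR and PR lists of untreated A1-2 cells, the PR list of untreated MTVL cells and the A1-2 input list each held 0 peaks near the 3 genes. GR peaks of A1-2 cells numbered 10 after Dex, with 3 near PDK4, 2 near ANGPTL4 and 5 near DDIT4. After R5020 the PR list of A1-2 cells held 14, as 3, 5 and 6 in the same order, and the PR list of MTVL cells held 17, as 4, 4 and 9. The GR list of A1-2 cells after R5020 held 0. These counts were set against consecutive windows of the same length tiled over chromosomes 1 to 22 and X, gene-poor stretches included. A window as long as the extended PDK4 held at least 1 peak in 35.3% of 25982 cases for GR after Dex, in 46.4% for PR in A1-2 cells and in 60.4% for PR in MTVL cells. Windows of the ANGPTL4 length gave 34.8%, 45.8% and 59.7%, and windows of the DDIT4 length gave 33.1%, 43.9% and 57.8%. A peak in each of the 3 lists at once, as all 3 genes had, was found in 30.1%, 29.5% and 27.9% of windows. The lists without a peak near the genes were short, and they reached few windows anywhere. GR after R5020 held a peak in 2.43% of windows of the PDK4 length, untreated GR in 0.674%, untreated PR in 1.08% (A1-2) and 0.770% (MTVL), and input in 4.37%. A count of 0 is thus what nearly every window of these lists shows, and nothing is read from it about the 3 genes. The nearest GR peaks after R5020 lay 6.16 Mb from PDK4, 1.13 Mb from ANGPTL4 and 1.3004 Mb from DDIT4.

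**Figure D1:**
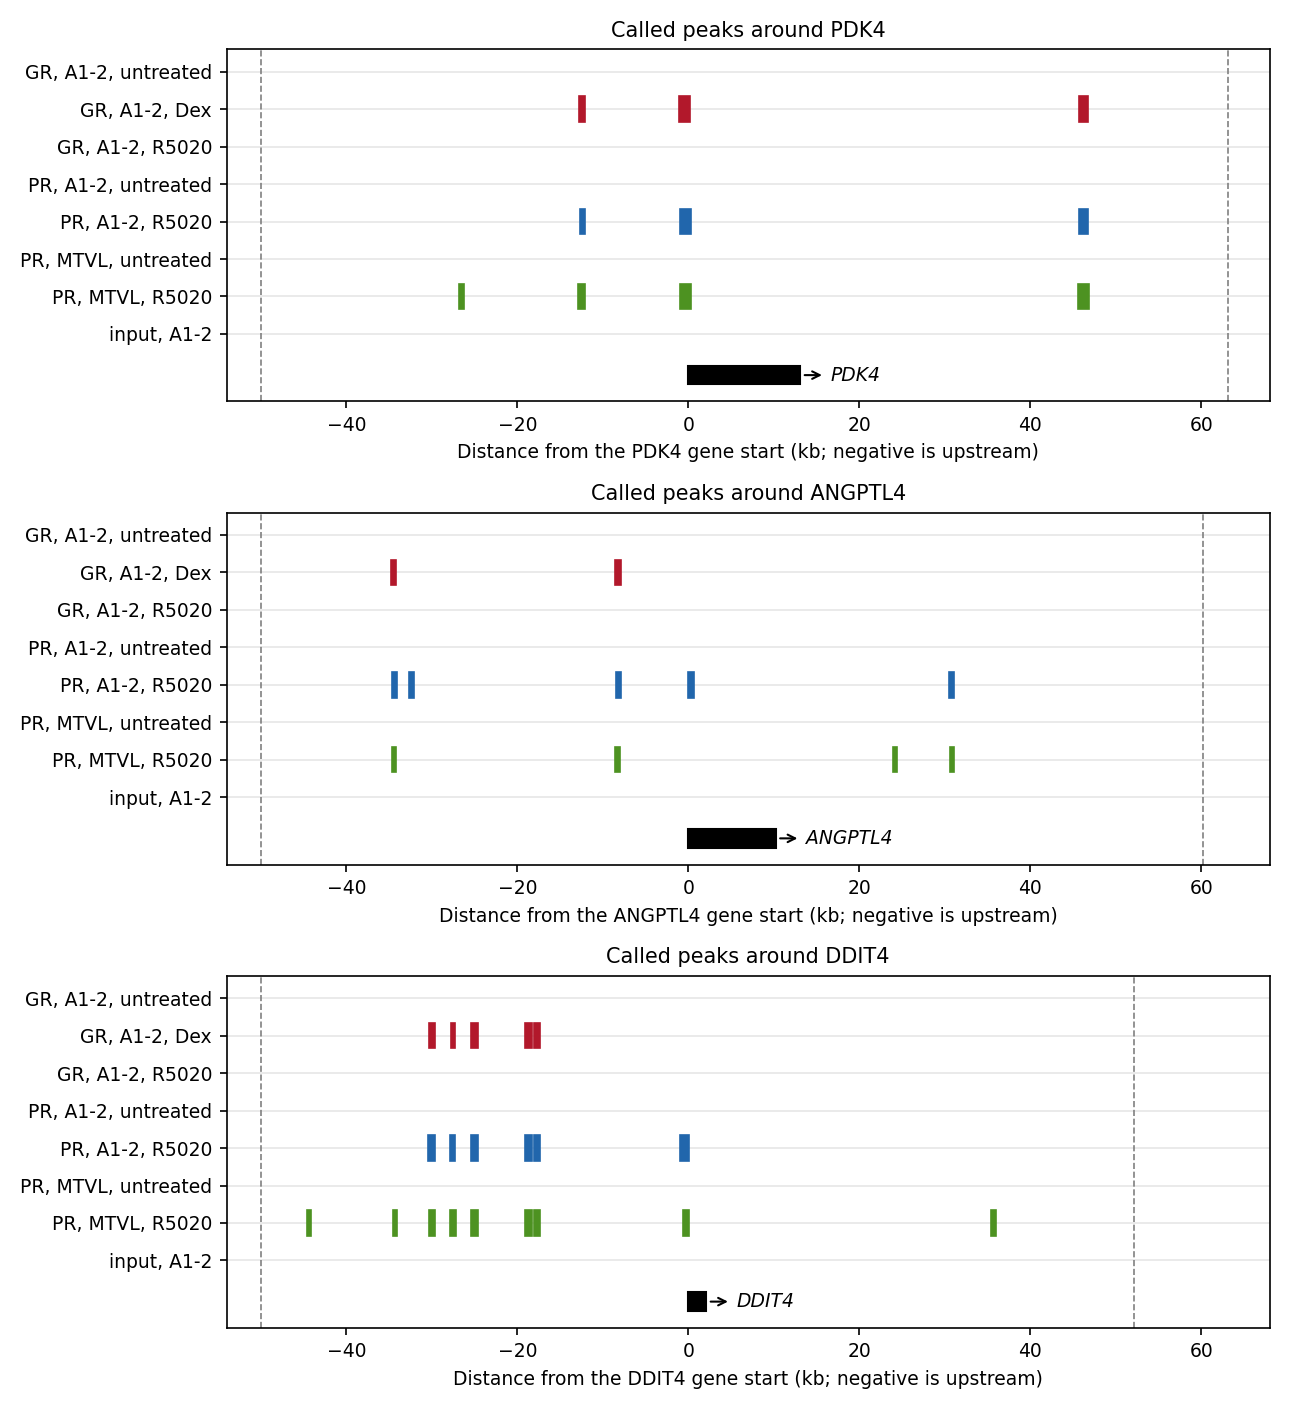
Peaks called in each of the 8 lists around PDK4, ANGPTL4 and DDIT4, by distance from the gene start in kb along the direction of the gene. Coloured blocks are peaks drawn to scale, black bars are gene bodies and dashed lines mark the 50 kb limit. Peaks stand in the rows of GR after Dex and of PR after R5020 in both lines, while the other 5 rows are empty.

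The 19 sites fell into 4 classes by the lists that called them. All 3 of the lists with peaks called 10 sites, the PR lists of both lines without GR called 2, PR of A1-2 cells alone called 2 and PR of MTVL cells alone called 5. No site was called for GR alone. Over the genome, 51444 sites chained in the same way from these 3 lists fell to the same classes at 22.4%, 22.4%, 5.69% and 36.5%, with 7.23% for GR alone. GR with PR of 1 line only, which no site here showed, made up 3.65% (A1-2) and 2.12% (MTVL). By place, 12 of the 19 sites lay upstream of the gene, 3 covered a gene start and 4 lay downstream. Of the 10 sites in all 3 lists, 8 were upstream, 1 was at a start and 1 downstream. No peak lay wholly within a gene body. The deposited score is a peak's own value, taken as -10 times the log10 of its p, and it is used here only to place a peak within its own list. It levels off near 3100, where many peaks are tied. The 7 sites in 1 list scored from 104 to 308, at percentiles from 2.35 to 58.6 of their lists, and 1 of them was above its list's median. The 2 sites of PR in both lines scored from 105 to 199. The 30 peaks of the 10 sites in all 3 lists scored from 149 to 3220.05.

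PDK4 had the fewest sites of the 3 genes, most of them strong. A site 12.5 kb upstream of the start scored 1292 for GR after Dex (chr7:95238011-95238772), 1422 for PR in A1-2 cells (chr7:95237999-95238581) and 3220.05 for PR in MTVL cells (chr7:95238001-95238838). These values stood at percentiles 96.3, 91.0 and 99.95 of their lists, the last within the range where the score no longer ranks peaks. Another site lay 46.2 kb beyond the start, 32.6 kb past the end of the gene, with scores of 1385, 1979 and 3100 in the same order, at percentiles 96.8, 94.4 and 97.5. This site held the highest score near PDK4 in both A1-2 lists (GR chr7:95179215-95180196, PR chr7:95179144-95180241), while in MTVL cells both sites were at the ceiling of the score and this one lay at chr7:95179045-95180378. Both sites were thus in the highest decile of score in each of the 3 lists.

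The site at the PDK4 start was the only gene start of the 3 with a GR peak. Its scores were 676 for GR after Dex (chr7:95225772-95227013), 769 for PR in A1-2 cells (chr7:95225644-95226936) and 2816 for PR in MTVL cells (chr7:95225657-95226945), at percentiles 89.3, 81.9 and 94.4. The peaks were broad, at 1242, 1293 and 1289 bp, at percentiles 94.4, 95.1 and 95.05 of the widths of their lists. They reached 1088, 1011 and 1020 bases upstream of the start and so took in the whole stretch printed above with its hexamer. The hexamer itself is a description of the letters and was not tested as a binding site. Among all PR peaks in the deciles of score of the PDK4 start peaks, 80.0% (A1-2) and 75.4% (MTVL) lay at a GR Dex peak. The fourth PDK4 site, 26.6 kb upstream, was called in MTVL cells alone (chr7:95252181-95252785, score 147, percentile 19.98). Of all MTVL PR peaks in that decile of score, 24.6% were found in A1-2 cells.

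By the median score of its peaks, ANGPTL4 was below PDK4 and DDIT4 in each of the 3 lists, and the lists ranked its sites differently. The site 34.4 kb upstream scored 175 for GR after Dex (chr19:8394199-8394840), 1419.9 for PR in A1-2 cells (chr19:8394305-8394942) and 654 for PR in MTVL cells (chr19:8394322-8394850). Within their lists these were percentiles 44.2, 91.0 and 70.5, so the peak was below the median of the GR list and in the highest decile of the A1-2 PR list. At the other site in all 3 lists, 8.23 kb upstream, the order turned. There GR after Dex scored 438 (chr19:8420445-8421110, percentile 81.2), PR in A1-2 cells 335 (chr19:8420513-8421104, percentile 61.4) and PR in MTVL cells 226 (chr19:8420445-8421063, percentile 38.4). The GR list thus put the nearer site first, while both PR lists put the farther one first. Lists of different length give different percentiles for the same binding, so these orders are read within each list only.

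The other 4 ANGPTL4 sites had no GR peak. In their deciles of score, 20.5% to 44.8% of all A1-2 PR peaks lay at a GR Dex peak. For MTVL PR peaks it was 13.5% to 19.6%. PR of A1-2 cells alone was called 32.4 kb upstream (chr19:8396350-8396868, score 308, percentile 58.6) and at the gene start (chr19:8429008-8429642, score 117, percentile 11.3). The first of these stood 1407 bases from the site at 34.4 kb. PR of MTVL cells alone was called 24.1 kb beyond the start (chr19:8452905-8453401, score 271, percentile 45.2). Both lines had a weak PR peak 30.8 kb beyond the start, with a score of 105 in A1-2 cells (chr19:8459529-8460138) and of 145 in MTVL cells (chr19:8459635-8460113). ANGPTL4 was the only one of the genes with PR peaks in A1-2 cells that MTVL cells lacked, 2 of its 5. Among all A1-2 PR peaks in the same deciles of score, 88.6% and 63.5% were also MTVL sites.

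DDIT4 had the densest binding, in a run of 5 sites upstream of the gene that all 3 lists called. They lay 30.0, 27.6, 24.99, 18.7 and 17.7 kb before the start. For GR after Dex their scores were 1587 (chr10:74003299-74004102), 149 (chr10:74005867-74006436), 2582 (chr10:74008279-74009109), 1878 (chr10:74014629-74015430) and 660.4 (chr10:74015635-74016292). For PR in A1-2 cells the scores of the same sites were 1377, 1249.6, 3100, 3100 and 1089, and for PR in MTVL cells they were 849.7, 1970.3, 3100, 3002 and 1342. The middle site, 24.99 kb upstream, held the highest score in each list, alone for GR and MTVL PR and tied at the ceiling with the next site for A1-2 PR. It stood at percentiles 99.3 for GR, 98.7 for PR in A1-2 cells (chr10:74008271-74009106) and 97.5 for PR in MTVL cells (chr10:74008292-74009090). No GR peak near PDK4 or ANGPTL4 scored as high as 2582.

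The site 27.6 kb upstream of DDIT4 had the lowest GR score of the run, at percentile 34.2 of the GR list. Its PR peaks stood at percentile 89.4 of the A1-2 list (chr10:74005754-74006399) and 90.3 of the MTVL list (chr10:74005754-74006446), values that are each read within 1 list and not set against GR. The other 4 sites of the run stood at percentiles 88.9 to 99.3 of the GR list. Together with the site 34.4 kb upstream of ANGPTL4, it was 1 of 2 sites of the 10 in all 3 lists with a GR score below the median of its list. In the A1-2 PR list 0 of those 10 were below the median, and in the MTVL PR list 1 was, the site 8.23 kb upstream of ANGPTL4. The matching share of all sites in 3 lists was not computed, so these counts are not compared between lists. Shared peaks score high over the whole lists too. Of all A1-2 PR peaks, 20.5% in the lowest decile of score and 95.6% in the highest lay at a GR Dex peak.

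The run upstream of DDIT4 was short for the number of its peaks. From the first to the last of the 5 sites it covered 12994 bp in the GR list, 13120 bp in the A1-2 PR list and 13046 bp in the MTVL PR list. Over the whole lists, 5 consecutive peaks covered 335, 224 and 164 kb in the median. Stretches of 5 peaks as short as this made up 1.45% of 18323 in the GR list, 1.34% of 28170 in the A1-2 PR list and 0.919% of 42978 in the MTVL PR list. Neighbouring stretches share peaks, and this measure was chosen after the run had been seen. The last 2 sites of the run were 196 bases apart.

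At the DDIT4 start both lines had a weak PR peak and no GR peak was called. The scores were 143 in A1-2 cells (chr10:74032704-74033707, percentile 24.0) and 199 in MTVL cells (chr10:74033033-74033715, percentile 33.3). Of all PR peaks in the same deciles of score, 27.3% (A1-2) and 17.3% (MTVL) lay at a GR Dex peak. The peaks at the DDIT4 start reached 973 and 644 bases upstream of it, over the printed stretch, which does not hold the hexamer. A further 3 sites were called for PR of MTVL cells alone, 44.4 kb upstream (chr10:73989017-73989488, score 112), 34.3 kb upstream (chr10:73999106-73999595, score 263) and 35.7 kb beyond the start (chr10:74069070-74069634, score 104). Of all MTVL PR peaks in those deciles of score, 18.9%, 44.6% and 18.9% were found in A1-2 cells.

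**Figure D2:**
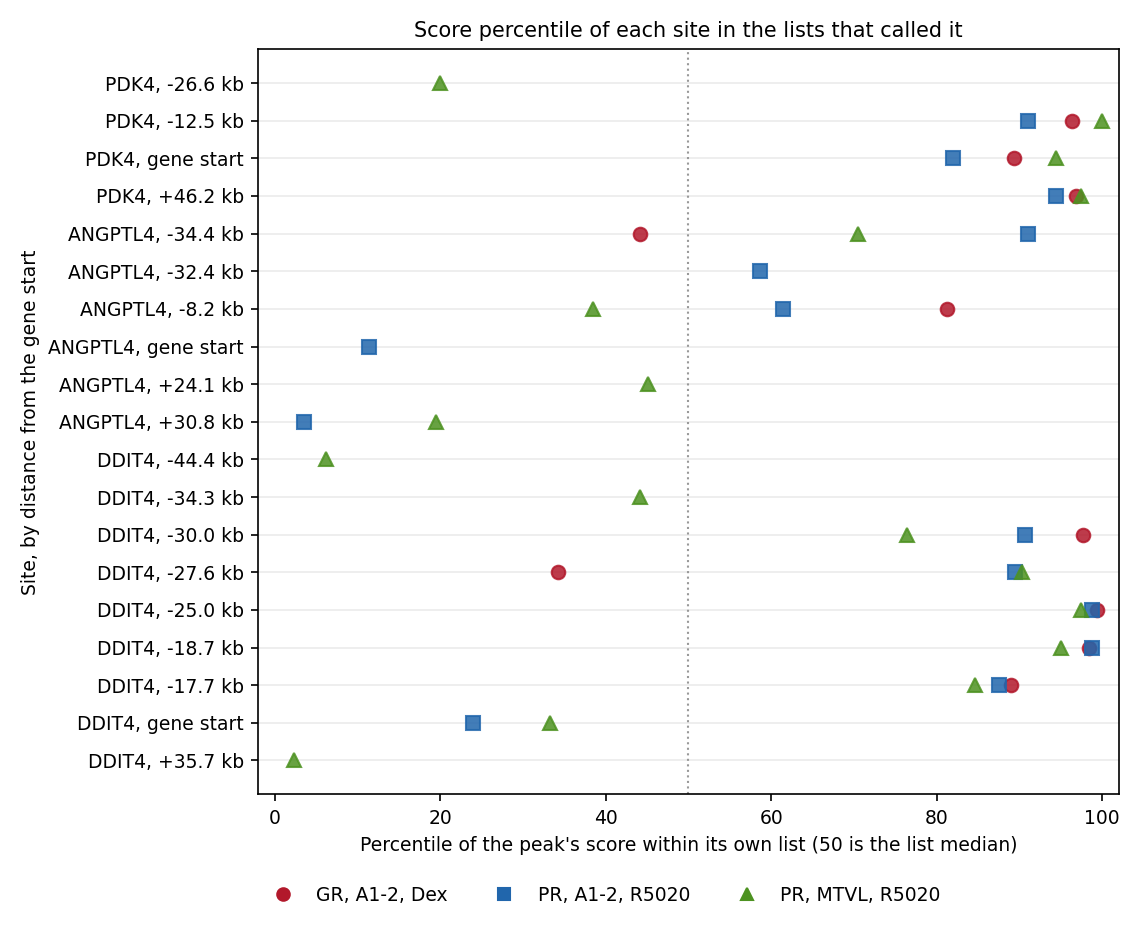
Percentile of the deposited score within its own list for each of the 19 sites, from PDK4 at the top to DDIT4 at the bottom, with 1 marker for each list that called the site. The 3 PDK4 sites with 3 markers and the run upstream of DDIT4 lie at percentile 76.4 or higher, apart from the GR peak 27.6 kb upstream of DDIT4 at 34.2, while sites with 1 marker lie at 58.6 or lower.

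By number of peaks, DDIT4 was the gene with the fewest windows to match it in each of the 3 lists. Windows of its length with at least 5 GR peaks made up 2.06% of 28779, those with at least 6 A1-2 PR peaks 2.78% and those with at least 9 MTVL PR peaks 1.26%. For PDK4 the matching shares were 8.33% (at least 3), 14.3% (at least 3) and 15.5% (at least 4). ANGPTL4 gave 16.0% (at least 2), 5.16% (at least 5) and 15.0% (at least 4). These shares describe the lists and are no test of the genes. They were not recomputed at other limits, and the counts depend on the limit. Within 20 kb DDIT4 had 2 GR Dex, 3 A1-2 PR and 3 MTVL PR peaks. PDK4 had 2 in each list there, and ANGPTL4 had 1, 2 and 2. The run sites 30.0, 27.6 and 24.99 kb before the DDIT4 start lie outside 20 kb.

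**Figure D3:**
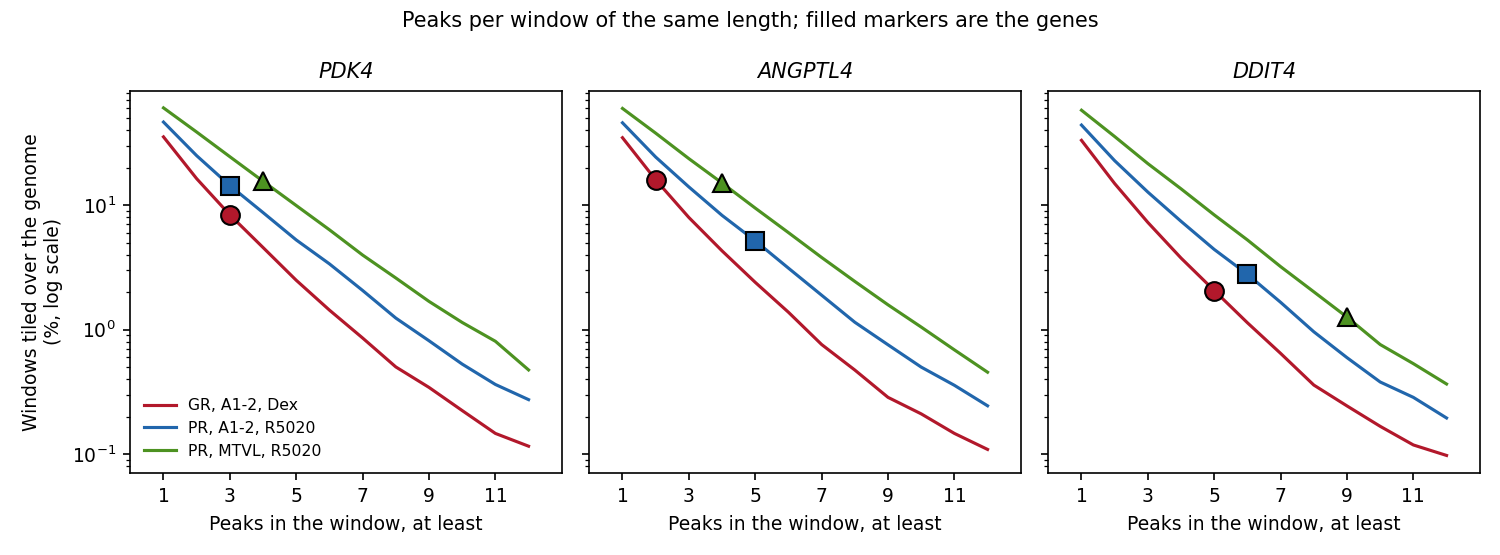
Share of genome windows (percent, log axis) with at least the number of peaks on the horizontal axis, for windows as long as each extended gene. Lines are the 3 lists and the outlined markers are the genes, with DDIT4 at 2.06% for GR, 2.78% for A1-2 PR and 1.26% for MTVL PR.

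Every GR peak near the genes lay at a PR site. All 10 GR Dex peaks overlapped a PR peak of A1-2 cells (100%, exact 95% interval 69.2 to 100) and a PR peak of MTVL cells, against 73.8% and 69.3% of the 18415 GR Dex peaks of the genome. Strong GR peaks are shared more often, and given the decile of score of each peak, whole-list shares added up to 9.13 of 10 for A1-2 PR and 8.57 of 10 for MTVL PR. In the other direction 10 of the 14 A1-2 PR peaks lay at a GR Dex peak (71.4%, 41.9 to 91.6), against 48.2% of the whole list and a sum of decile shares of 9.84. By gene these were 3 of 3 for PDK4, 2 of 5 for ANGPTL4 and 5 of 6 for DDIT4. The 4 without GR had a median score of 129.6, and the 10 with GR one of 1399. The number of shared A1-2 PR peaks near the genes, 10, was thus close to the 9.84 that whole-list shares at their scores add up to. Intervals count peaks as independent, which close sites of 1 gene may not be, and cover counting error only.

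How the lines compared at these genes was read from the PR peaks after R5020. Of the 17 MTVL peaks 12 were found in A1-2 cells (70.6%, 44.0 to 89.7), against 53.8% of the whole list and a sum of decile shares of 10.8. Of the 14 A1-2 peaks 12 were found in MTVL cells, against 82.7% of the whole list and a sum of 12.6. MTVL peaks lay at an A1-2 GR Dex peak in 10 of 17 cases, against 29.5% of the list and a sum of 7.02. All 10 MTVL sites at a GR Dex peak were also PR sites of A1-2 cells. Sites of GR Dex and MTVL PR without A1-2 PR are rare over the genome (2.12% of all chained sites), so their count of 0 near these genes is not a result about them. The 5 MTVL peaks that A1-2 cells lacked scored from 104 to 271, and the 12 found in both lines had a median of 1656.

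**Figure D4:**
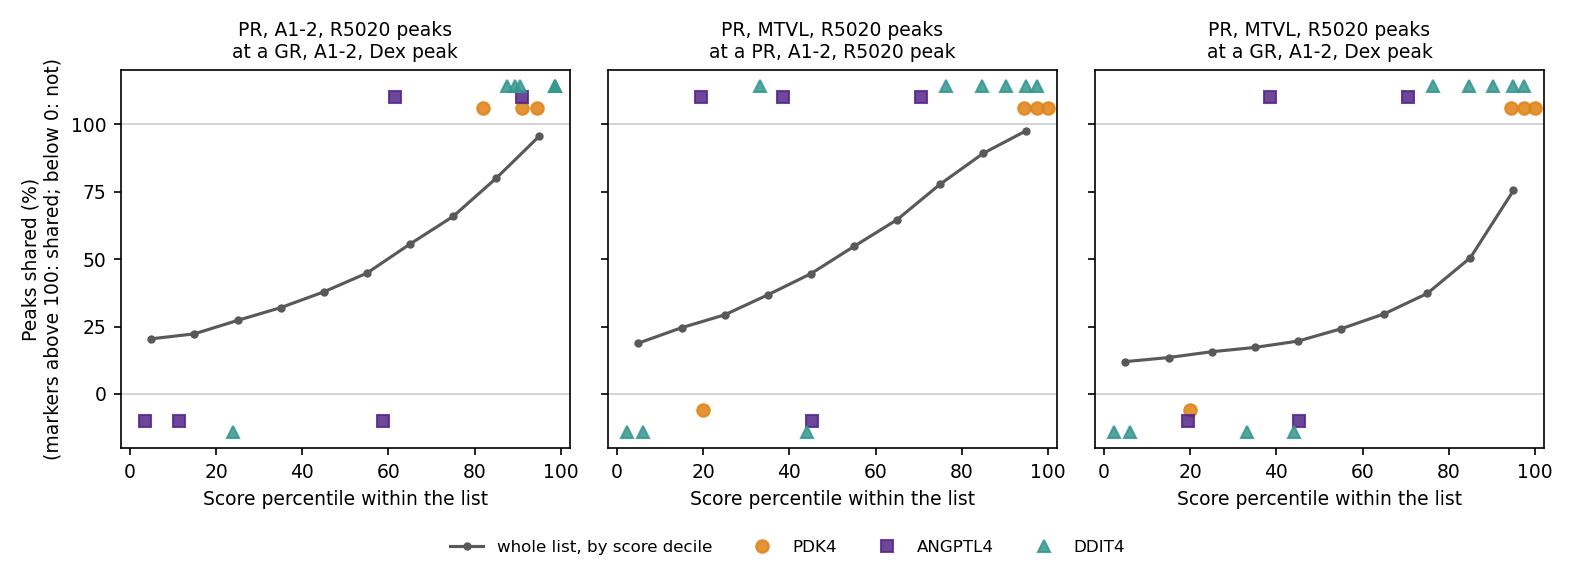
Share of peaks that overlap a peak of another list (percent) by percentile of score, with the grey line for the deciles of the whole list. Markers are the peaks near PDK4, ANGPTL4 and DDIT4, above 100 where shared and below 0 where not, and the unshared ones stand at percentile 58.6 or lower.

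Where the lists shared a site, their peaks were nearly concentric. The midpoints of GR Dex and A1-2 PR peaks were 39.2 bp apart in the median over the 10 sites (5.5 to 104), compared with 39.5 bp over 13590 GR peaks of the genome. Between the PR peaks of the lines the median was 21.2 bp over 12 sites (1.5 to 168.5), compared with 38.0 bp over the genome. The largest of these distances was at the DDIT4 start.

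The limit of 50 kb left out some strong neighbours. Just inside it, the outermost peak was the MTVL PR peak 44.2 kb from the DDIT4 body, with a score of 112. Just outside, an A1-2 PR peak stood 52.1 kb upstream of ANGPTL4 (chr19:8376298-8376890, score 117), and a PR site of both lines stood 53.6 kb downstream of DDIT4, with scores of 602 in A1-2 cells (chr10:74089580-74090228) and 1869.9 in MTVL cells (chr10:74089407-74090255). The nearest coding genes in RefSeq's order are DYNC1I1 and ASB4 around PDK4, KANK3 and RAB11B around ANGPTL4, and ANAPC16 and DNAJB12 around DDIT4. A site within 50 kb of a member may also lie close to such a neighbour, and which gene a site acts on was not tested.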

How the data were processed

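GR and PR ChIP-seq peaks of T47D A1-2 and MTVL WT cells were read from 8 deposited lists, 1 per library. Per the submitters' processing notes, Bowtie 1.1.1, MACS 1.4.2, bedtools and hg19 were used. Control library, settings, filters and depth were not given in the sources used here. Scores in the deposited lists belong to single peaks and were taken as MACS's -10 times log10 of p (lowest value 100, named threshold 1e-10), and were used within a list only.

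Here, gene bodies were extended by 50 kb, and every peak there was counted and named by rule if its site was in 2 or more lists or it was the highest of a list at a gene. Overlap meant at least 1 bp. Whole-list shares used chromosomes 1 to 22 and X without peaks at input peaks. Positions count from 1. Strand and promoters came from RefSeq (GRCh38.p14). With no hg19 annotation used, the planned list of other fasting genes was not placed and no genes of like pattern were sought. Members and lists were chosen with earlier results of these data known. Other windows (20 and 100 kb), a score of at least 200, leaving out input peaks, other overlap rules, gaps of up to 500 bp and a shifted tiling were tried. The overlap step was tested on simulated data with 5000 peaks planted to overlap among 28262, so finding them checks the code only. All 5000 were found, and bedtools 2.31.1 gave the same total of 5188. On the full deposited lists, both gave 13716 of 28563 A1-2 PR peaks at a GR Dex peak. Computations used Python 3.11.15, numpy 2.4.6, pandas 2.3.3, scipy 1.17.1 and matplotlib 3.10.9.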

Additional observations from a re-analysis of the deposited data

How the results depend on the processing

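Of 116 alternatives over 31 results, 91 stayed within 1.5 times the value for counts, or within its exact 95% interval for shares. The other 25 moved further, and no alternative was checked for a reversal. Some of the 91 could not have moved. Counts of 0 could only stay 0 with a narrower window, a higher score or fewer peaks. Leaving out input peaks could not change any count or share of peaks near the genes. The width of the window moved the number of peaks. Within 20 kb there were 5 GR Dex peaks, 7 PR peaks in A1-2 cells and 7 in MTVL cells, and within 100 kb there were 22 PR peaks in A1-2 cells and 26 in MTVL cells. Of the shares of shared peaks, those of A1-2 PR at GR Dex, GR Dex at A1-2 PR and MTVL PR at A1-2 PR were recomputed, and these stayed within their intervals at each setting run. The intervals rest on 10 to 17 peaks and are wide, 41.9 to 91.6 for A1-2 PR at GR Dex. A large move could thus stay within them. The other shares were not recomputed. That of A1-2 PR peaks at GR Dex peaks was lowest within 100 kb, where 11 of 22 were shared (50%), near the 48.2% of the whole list. With a score of at least 200, windows with at least 1 GR Dex peak made up 21.1%, 20.8% and 19.5% for the lengths of PDK4, ANGPTL4 and DDIT4. Those with a PR peak of A1-2 cells made up 33.5%, 33.0% and 31.4%, and those with a PR peak of MTVL cells 49.1%, 48.4% and 46.4%. Fewer peaks in the lists lower these shares by construction. At that score 8 sites were in 3 lists instead of 10, since the GR peaks 34.4 kb upstream of ANGPTL4 and 27.6 kb upstream of DDIT4 score 175 and 149. Joining peaks across gaps of up to 500 bp merged the last 2 sites of the run upstream of DDIT4 and gave 18 sites. The remaining 11 moved alternatives were counts for single genes. No peak near the genes overlapped an input peak. The input was of A1-2 cells alone, so the MTVL PR peaks were not checked against input of their own line. No paired analysis was possible because each condition had 1 library. Depth was unknown, so a site missing from a list may be one that its depth did not reach.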

Other observations

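Between 50 and 100 kb from the gene bodies, PR peaks numbered 8 in A1-2 cells and 9 in MTVL cells, and GR Dex peaks 1. The lists differ in length, with means of 0.714 (GR Dex), 1.09 (A1-2 PR) and 1.67 (MTVL PR) peaks per window of the PDK4 length, so these counts are not compared between receptors. The GR peak lay 94.8 kb upstream of PDK4 (chr7:95320705-95321295, score 633), at a PR site with a score of 3100 in each line (chr7:95320763-95321480 in A1-2 cells). Downstream of DDIT4, a second PR site of both lines stood 55.2 kb from the gene, with scores of 565 in A1-2 cells (chr10:74091065-74091980) and 1583 in MTVL cells (chr10:74091000-74091980) and no GR peak. Downstream of ANGPTL4, a pair of PR sites at 85.4 and 86.4 kb was called in both lines, with scores of 561 and 517 in A1-2 cells and 716 and 725 in MTVL cells, and no GR peak. Of all A1-2 PR peaks in the decile of score that holds the A1-2 peaks of these DDIT4 and ANGPTL4 sites, 65.8% lay at a GR Dex peak. These sites were looked at after the values near the genes had been seen.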
